A study of Mus musculus with 61 samples.

Results

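Heat shock proteins, their J-domain partners and the chaperonins were followed over 72 h in mouse CD4 T cells stimulated in culture. Members were taken by name, as every gene whose platform symbol starts with Hsp or Dnaj, or with Cct followed by a digit, and 70 of the 12291 genes on the arrays qualified. The arm called IL27 received IL-27, a cytokine that drives naive CD4 T cells toward IL-10-producing type 1 regulatory (Tr1) cells, and the arm called ctrl is its control. Naive cells came from C57BL/6 mice, and the labels give IL-27 at 25 ng/ml with antibodies at 1 µg/ml against CD3 and against a second antigen written as CD8. The same protocol text stands on every array, ctrl included, so the arm was read from the titles. Times are given without a unit and were read as hours. Each arm was followed on 26 HT_MG-430A arrays at 18 times between 0.5 and 72 h; 8 of these times had a pair of arrays in each arm and 10 had 1. A set of 9 Mouse430A_2 arrays, with a ctrl array at 0 h and single arrays of each arm at 4, 16 and 48 h, served as a check. The labels do not say whether arrays are separate cultures or mice, and p-values therefore measure only how arrays scatter, which may be technical. Where arrays of several times are pooled, that scatter also holds change between those times. In a bulk culture, fewer cells of a type and less RNA per cell cannot be told apart.

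Chaperones help new or damaged proteins reach their folded shape. Hsp70 proteins bind exposed stretches of a polypeptide and release them again; J-domain proteins (the Dnaj genes) hand them substrates, and nucleotide exchange factors such as the Hsp110 proteins reset them. Chaperonins are closed chambers: CCT, built of different subunits, folds actin and tubulin in the cytosol, and Hsp60 with its lid Hsp10 folds proteins inside mitochondria. Many of these genes are induced by heat shock factor 1 through heat shock elements, and those of the endoplasmic reticulum by the unfolded protein response. A naive T cell that is stimulated grows before it divides and makes protein at a high rate, which is the setting in which chaperone genes are usually discussed in T cells.

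The median intensity of an array was 28.0 to 36.6 for HT_MG-430A and 70.7 to 78.9 for Mouse430A_2. How many arrays there are limits the precision. The ctrl array at 12 h stood apart. Its highest correlation with any other array over 7164 genes was 0.871, while every other array reached at least 0.977 with some array, so results whose call or value turns on it are given with and without it. Of the T cell markers 5 of 6 were named on the arrays, and their summed intensity lay between 3514 and 13536 in IL27 and between 4489 and 13403 in ctrl. Of the 2 CD8 markers, Cd8a was above its array's median on none of the arrays of either arm, while Cd8b1 was above it on all 26 of each, with medians of 91.3 in IL27 and 129.6 in ctrl. The B cell markers summed to at most 123 in IL27 and 112 in ctrl. The 4 myeloid markers summed to between 59.4 and 322.6 in IL27 and between 59.6 and 228 in ctrl, and one of them, Lyz2, was above the median on 6 arrays of IL27 and 5 of ctrl. The part of such cells in the results was not tested.

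By function, the 70 members comprised 8 CCT subunits, 6 mitochondrial members, 1 cytosolic Hsp90, 10 cytosolic Hsp70 and Hsp110 genes, 7 members of the endoplasmic reticulum, 5 small heat shock proteins, 30 other J-domain genes and 3 that were placed in none of these groups. Those 3 are Hspbp1, a nucleotide exchange factor of Hsp70, Hspb11, a subunit of the transport machinery of cilia, and Hspg2, which encodes the matrix proteoglycan perlecan. To be tested, a gene had to exceed the median of the array on 5 or more HT_MG-430A arrays, and 7164 genes did, 56 members among them. The other 14 included all 5 small heat shock proteins, the family of holdases that includes Hspb1. Hspb1 ranged from 16.4 to 45.0 with a median of 22.0 intensity units and was above the array median on 3 arrays. Also below the filter were Hspa1a, Hspa1l and Hspa12b of the Hsp70 group, the CCT paralogue Cct6b, and Dnajb3, Dnajb7, Dnajb8, Dnajc5b and Dnajc28. Values of 7.07 to 41.8 for Hspa1a put it above the median on 2 arrays.

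More of these genes differed between times of culture than between the arms. Values were compared between bins of time within an arm, as differences of log2(intensity + 32), which understates changes of dim genes. A gene was called at an adjusted p under 0.05 (limma, Benjamini-Hochberg over the 7164 genes). HT_MG-430A values listed for a called member include those that gave its call, so gaps between them add no separate support. Between 0.5 to 2 h and 12 to 20 h, 28 members rose and 12 fell in IL27, and the same numbers did in ctrl. Of all genes, 73.3% were called in IL27 (41.0% higher, 32.3% lower) and 73.0% in ctrl (39.5% higher, 33.5% lower), and of the members 71.4% in each arm. The first step, from 0.5 to 2 h to 4 to 8 h, had 27 members higher and 11 lower in IL27, and 26 higher and 14 lower in ctrl, where 55.5% of all genes were called in IL27 (30.4% higher, 25.2% lower) and 54.6% in ctrl (27.3% higher, 27.3% lower). Between 12 to 20 h and 60 to 72 h, 8 members rose and 32 fell in IL27, and 8 rose and 28 fell in ctrl. Of all genes, 63.6% were called there in IL27 (31.5% higher, 32% lower) and 55.3% in ctrl (27.7% higher, 27.6% lower), while 57.1% of the members fell in IL27 and 50% in ctrl. Over this late span the median member difference was -0.43 in IL27 and -0.24 in ctrl, against -0.01 over all genes in each arm. These late counts rest on few arrays. Without the pair at 72 h, which leaves 1 array per arm at 60 h, 23 members were called in IL27 and 13 in ctrl. Without the 8 h arrays, 24 were called at the first step in each arm. The ctrl rise had 44 called members and the ctrl fall 37 without the 12 h ctrl array.

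**Figure D1:**
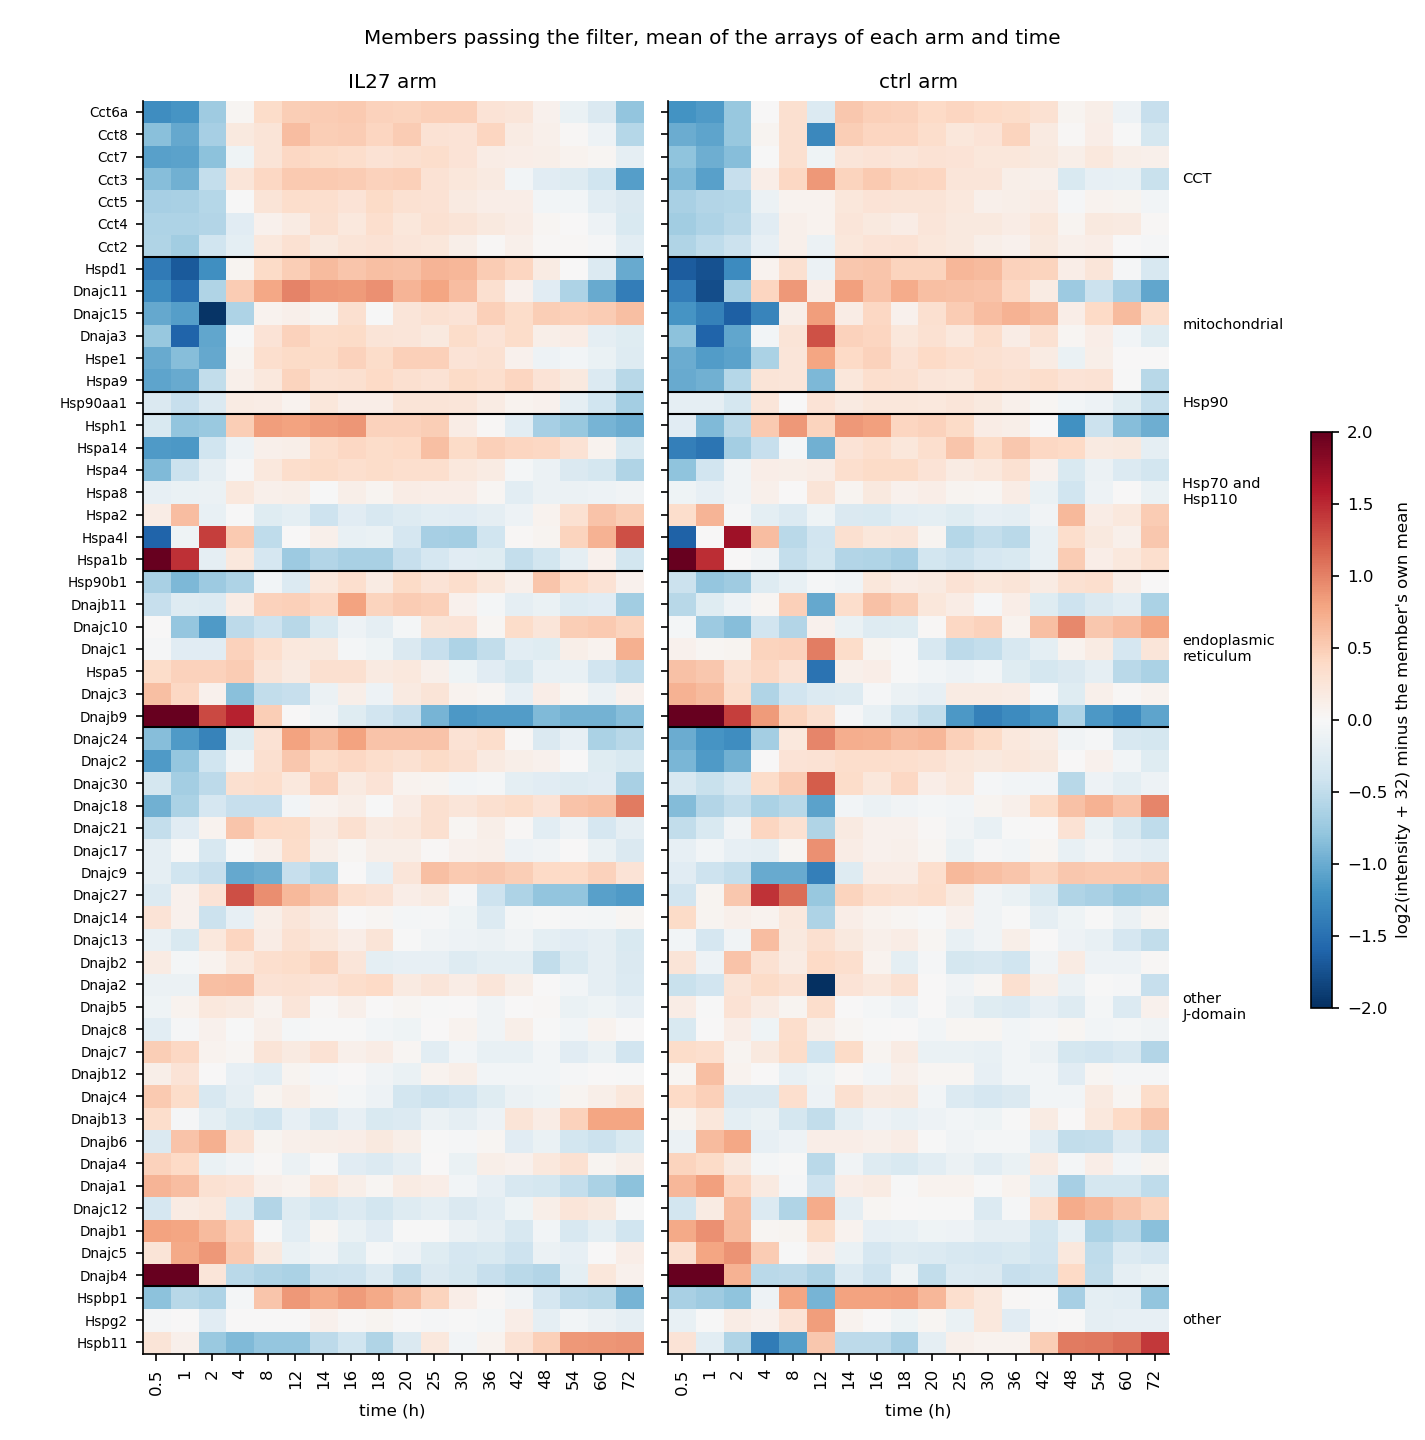
Heat map of the 56 tested members (rows, grouped by function) over the 18 HT_MG-430A times (columns, hours), IL27 on the left and ctrl on the right. Colour is log2(mean intensity of the arrays of a time + 32), minus the member's own mean of these values over all times of both arms. Most CCT and mitochondrial rows are low to 2 h, high from 8 to 36 h and lower again by 72 h. The ctrl column at 12 h stands apart.

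The CCT subunits moved together. All 7 tested rose by 12 to 20 h in both arms, with a median difference of 1.20 in IL27 and 1.07 in ctrl, and all 7 were already called at 4 to 8 h. Of all genes, 41.0% rose by 12 to 20 h in IL27 and 39.5% in ctrl. Cct3 had 1791, 1654, 1853 and 2795 intensity units on the IL27 arrays at 0.5, 1, 2 and 2 h, and at 12 to 20 h ran from 4423 through a median of 4660 to 4805. In ctrl it had 1754, 1519, 1931 and 2767 at the early times and ran from 4306 through 4427 to 5964 later. No early array of either arm reached the lowest later one. The difference was 1.20 ± 0.13 in IL27 (SE, adjusted p 2.5e-11) and 1.25 ± 0.13 in ctrl (8.7e-12). Cct6a had the largest rise among the subunits, 1.45 ± 0.13 in IL27 and 1.31 ± 0.13 in ctrl. Cct2 had the smallest, 0.79 ± 0.07 in IL27 and 0.69 ± 0.07 in ctrl. Cct4, Cct5, Cct7 and Cct8 lay between them, at 0.85 to 1.31 in IL27 and 0.79 to 1.10 in ctrl. Cct8 on the 12 h ctrl array was 762, against 2429 to 2682 for the other ctrl times from 14 to 20 h, and without that array its rise in ctrl was 1.31 and that of Cct6a 1.42.

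By 60 to 72 h all 7 subunits had fallen from their level at 12 to 20 h in IL27, and 4 had in ctrl. The 3 arrays of that bin gave Cct3 values of 2451, 1632 and 1368 in IL27 at 60, 72 and 72 h, against 2942, 2106 and 2629 in ctrl. Both sets lay below every array of 12 to 20 h, and the fall was -1.37 ± 0.14 in IL27 (adjusted p 2.4e-11) and -0.88 ± 0.14 in ctrl (1.1e-06). Cct6a followed with -1.11 ± 0.14 in IL27 and -0.71 ± 0.14 in ctrl. Cct2 fell by 0.41 in IL27 and by 0.21 in ctrl, and Cct5 by 0.58 and 0.25. Cct4, Cct7 and Cct8 were called in IL27, at -0.48, -0.45 and -0.92, and did not pass in ctrl, at -0.12, -0.12 and -0.41. Cct8 passed there too without the 12 h ctrl array, at -0.66 (adjusted p 5.9e-06). Without the 72 h arrays, Cct2, Cct7 and Cct8 were lost in IL27 (-0.29, -0.31 and -0.62) and Cct2, Cct5 and Cct6a in ctrl (-0.19, -0.18 and -0.45), while Cct3 kept its call in IL27 at -0.90. Cct2 in ctrl was also lost without the 16 h arrays (-0.18) or the 20 h arrays (-0.20). Cct5 stood among the subunits with 2 units of a heat shock element close to its start. The stretch shown ends at the base before the annotated start of Cct5 (RefSeq, GRCm38.p6, chr15:31601847-31601920, minus strand), and capitals mark the match to TTCNNGAA.
Cct5: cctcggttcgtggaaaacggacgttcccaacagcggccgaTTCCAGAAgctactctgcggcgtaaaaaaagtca

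**Figure D2:**
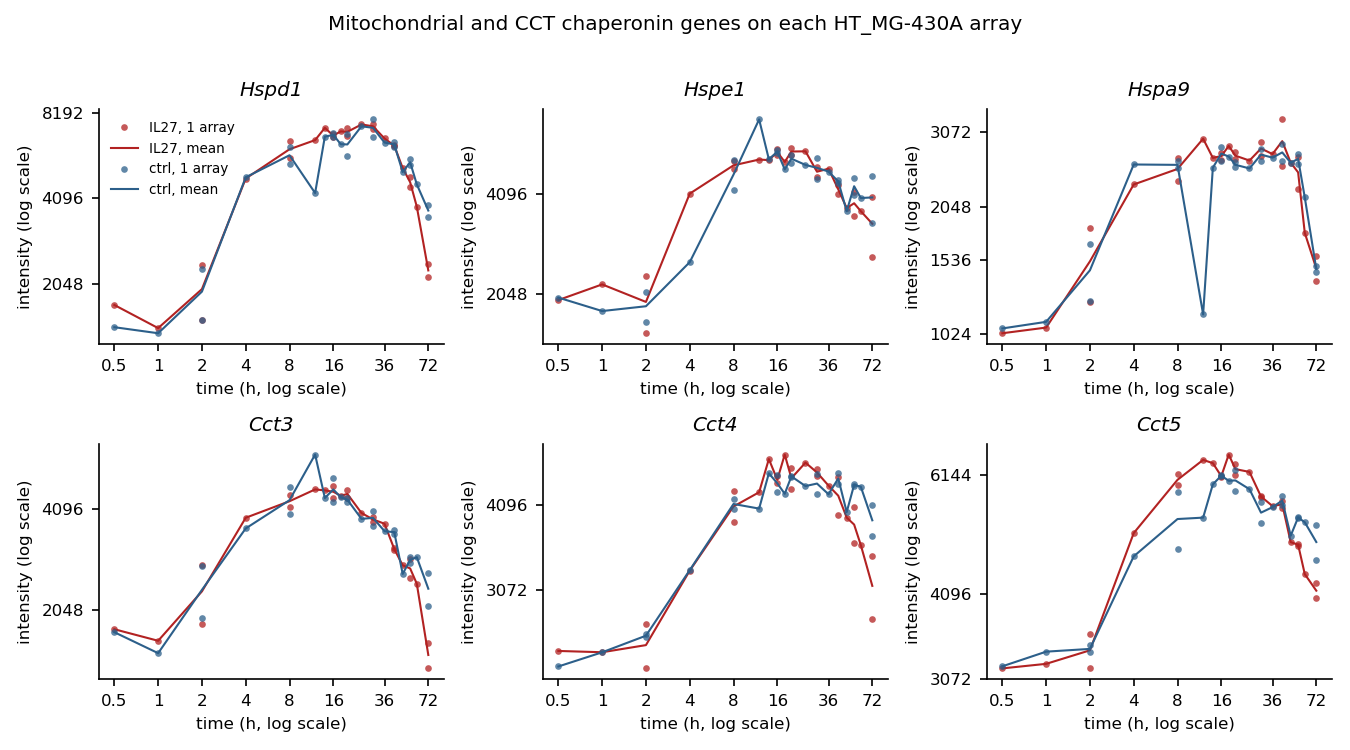
Intensity (log axis) of Hspd1, Hspe1, Hspa9, Cct3, Cct4 and Cct5 against hours of culture; points are HT_MG-430A arrays, lines join the means of a time, and IL27 and ctrl have separate colours. Hspd1 has its lowest arrays at 1 h (1432 in IL27, 1373 in ctrl) and 6097 units in IL27 and 5808 in ctrl at 8 h, and its 72 h arrays are 2398 and 2172 in IL27 and 3526 and 3896 in ctrl.

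The mitochondrial members rose as a group. All 6 rose in both arms, with a median of 1.57 in IL27 and 1.67 in ctrl, and all 6 were called by 4 to 8 h. Between 0.5 to 2 h and 12 to 20 h, 41.0% of all genes rose in IL27 and 39.5% in ctrl. Hspd1, the gene of Hsp60, had 1727, 1432, 1531 and 2396 units on the IL27 arrays of 0.5 to 2 h and 1442, 1373, 1530 and 2318 on those of ctrl. At 12 to 20 h it ran from 6566 through 6882 to 7259 in IL27 and from 4277 through 6737 to 6964 in ctrl, where the lowest value is the 12 h array. The groups of early and later arrays did not overlap, and the rise was 1.98 ± 0.14 in IL27 (adjusted p 1.0e-16) and 1.90 ± 0.14 in ctrl (3.4e-16). Hspe1, which encodes the Hsp10 lid, rose by 1.42 ± 0.12 in IL27 and 1.52 ± 0.12 in ctrl. At 4 h it had 4115 units in IL27 and 2552 in ctrl, 1 array each, and the first step in ctrl was lost without the 8 h arrays (0.43, adjusted p 0.064), as was that of Dnajc15 in ctrl (0.13). Hspa9, the Hsp70 of the mitochondrial matrix, rose by 1.12 ± 0.15 in IL27 and 0.90 ± 0.15 in ctrl, where it was 1.07 without the 12 h array. Dnaja3, its J-domain partner, rose by 1.44 ± 0.15 in IL27 and by 1.62 ± 0.15 in ctrl (1.49 without the 12 h array). Dnajc11, an outer membrane protein, rose by 1.84 ± 0.19 in IL27 and by 1.72 ± 0.19 in ctrl.

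Dnajc15, a J-domain protein of the import motor, kept its level. It averaged 340 ± 131, 1121 ± 127 and 1476 ± 292 units at 0.5 to 2, 12 to 20 and 60 to 72 h in IL27 (SD, n = 4, 7 and 3) and 342 ± 59, 1285 ± 249 and 1353 ± 198 in ctrl. Its late difference was 0.38 ± 0.21 in IL27 and 0.08 ± 0.21 in ctrl, neither called, while the other 5 mitochondrial members fell in both arms. Dnajc11 fell furthest, by 2.10 ± 0.21 in IL27 and by 1.5 ± 0.21 in ctrl on the log2 scale, and its 60 to 72 h mean was 121 ± 33 in IL27 and 161 ± 32 in ctrl, near the 156 ± 64 and 142 ± 69 of 0.5 to 2 h. Hspd1 fell by 1.34 ± 0.15 in IL27 and by 0.63 ± 0.15 in ctrl, Hspe1 by 0.66 ± 0.13 and 0.46 ± 0.13, and Hspa9 by 0.81 ± 0.17 and 0.49 ± 0.17. Without the 72 h arrays Hspd1 was still called in IL27 (-0.85) and not in ctrl (-0.43), and Hspe1 and Hspa9 were not called in ctrl (-0.45 and -0.12). Dnaja3 fell by 0.55 in IL27 and by 0.68 in ctrl and was called in neither without them (-0.50 and -0.55), and Hspa9 in ctrl was also lost without the 16 h arrays (-0.4).

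The genes of Hsp60 and Hsp10 lie head to head on chromosome 1, with Hspd1 on the minus strand, Hspe1 on the plus strand and 216 bases between their annotated starts. One stretch between them is shown because both members rose together and both windows hold it. It is given on the strand of Hspe1 (RefSeq, GRCm38.p6, chr1:55088019-55088116, plus strand), from 129 to 32 bases before the start of Hspe1. Capitals mark overlapping matches to a heat shock element of 3 units, written TTCNNGAANNTTC and GAANNTTCNNGAA on either strand.
Hspe1: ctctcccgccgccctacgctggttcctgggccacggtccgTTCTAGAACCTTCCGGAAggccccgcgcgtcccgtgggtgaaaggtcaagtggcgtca

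Windows of 250 bases before to 50 after the start were at hand for 58 of the 70 members and for 27025 genes. The element of 3 units was found in 4 members, Dnajb6, Hspd1, Hspe1 and Hsph1, which is 6.9% of members against 0.662% of all genes. Its 2-unit core, GAANNTTC or TTCNNGAA, was found in 17 members, 29.31% against 16.973%. Each of its 2 forms reads the same on both strands, and every match to the longer element is also a match to the core. Members with the core include Cct2, Cct5, Cct6a, Dnaja1, Dnajb4, Hspa1a and Hspa1b. A match is a description of the letters and not of binding.

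In the cytosol, the Hsp110 gene Hsph1 rose and later fell in both arms. It averaged 933 ± 300, 2394 ± 385 and 731 ± 47 units at 0.5 to 2, 12 to 20 and 60 to 72 h in IL27, and 1002 ± 324, 2271 ± 366 and 749 ± 270 in ctrl (SD, n = 4, 7 and 3). It rose by 1.37 ± 0.20 and fell by 1.65 ± 0.22 in IL27, and rose by 1.19 ± 0.20 and fell by 1.61 ± 0.22 in ctrl. Hspa4, another Hsp110, rose by 0.77 ± 0.11 in IL27 and 0.65 ± 0.11 in ctrl and later fell by 0.86 ± 0.12 and 0.64 ± 0.12. Hspa14, an Hsp70 that works at the ribosome, rose by 1.12 ± 0.18 in IL27 and 1.16 ± 0.18 in ctrl (1.34 without the 12 h array), and its ribosome partner Dnajc2 by 1.06 ± 0.09 and 1.32 ± 0.09. Hsp90aa1, the inducible cytosolic Hsp90, rose by 0.51 ± 0.08 in IL27 and 0.49 ± 0.08 in ctrl and fell by 0.77 ± 0.09 and 0.63 ± 0.09. On its brightest probe set Hspa8, the constitutive Hsp70, changed least of the rising genes. It rose by 0.24 ± 0.06 in IL27 and by 0.25 ± 0.06 in ctrl, and over the 18 times its highest mean was 1.33 times its lowest in IL27 and 1.57 times in ctrl. Its late fall, -0.19 ± 0.07 in IL27 and -0.23 ± 0.07 in ctrl, was lost in both arms without the 72 h arrays (-0.21 and -0.14) and in IL27 without the 60 h arrays (-0.18). The dimmest of the 4 probe sets of Hspa8, with a mean of 200 units, moved further. It gave 1.01 in IL27 and 0.84 in ctrl for the rise, and -2.315 and -1.896 over the late span. The probe sets between them in brightness gave rises of 0.14 to 0.35.

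Hspa4l, the third Hsp110 gene, had a course of its own. Means by time in IL27 were 127, 422 and 1227 units at 0.5, 1 and 2 h, 662 at 4 h, 307 at 8 h and 269 at 30 h, and they then climbed to 747 at 60 h and 1146 at 72 h. In ctrl they were 126, 456 and 1534 at 0.5, 1 and 2 h, 712 at 4 h, 301 at 8 h, 315 at 30 h, 489 at 60 h and 671 at 72 h. A gene that peaks inside the first bin cannot be described by that bin's mean, and neither its first step nor its rise was called. The late difference was 1.21 ± 0.45 in IL27 (adjusted p 0.017) and 0.31 ± 0.45 in ctrl (0.58), and that of IL27 was lost without the 72 h arrays (0.84, adjusted p 0.37). The difference between these differences was not called, and its second probe set gave -0.46 in ctrl over the late span.

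Hspa1b was at its highest on the first arrays. It encodes the inducible Hsp70, and its probe set is marked as one that can detect similar transcripts, so that Hspa1a and Hspa1b cannot be told apart by it. At 0.5, 1, 2 and 2 h it had 487, 185, 38.2 and 36.9 units in IL27 and 584, 188, 45.8 and 48.8 in ctrl. From 12 to 20 h it lay between 12.1 and 27.6 in IL27 and between 17.7 and 30.9 in ctrl, below every early array. The difference was -1.55 ± 0.35 in IL27 (adjusted p 0.00011) and -1.62 ± 0.35 in ctrl (5.9e-05). It was -0.97 and -1.01 without the 0.5 h arrays and -2.69 and -2.73 without those of 2 h, so its size rests on single arrays. At the first step it fell by 1.12 ± 0.42 in IL27 and by 1.46 ± 0.42 in ctrl; the IL27 value was lost without the 0.5, 1 or 8 h arrays (-0.53, -0.95 and -0.74) and the ctrl value without those of 8 h (-1.18), and without 2 h they were -2.25 and -2.56. The sequence is shown because the gene is the textbook target of heat shock factor 1 and had the steepest early fall of the cytosolic Hsp70 genes. It lies 144 to 57 bases before the start (RefSeq, GRCm38.p6, chr17:34959295-34959382, minus strand), with the core match in capitals.
Hspa1b: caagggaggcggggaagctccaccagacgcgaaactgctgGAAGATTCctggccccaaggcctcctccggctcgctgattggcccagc

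The J-domain genes Dnajb4, Dnajb1 and Dnaja1 had their highest means at 0.5 or 1 h in both arms. Dnajb4 had 914, 741, 240 and 107 units at 0.5, 1, 2 and 2 h in IL27 and 990, 765, 329 and 171 in ctrl, and 88.2 in IL27 and 87.9 in ctrl at 4 h. It fell by 1.67 ± 0.30 in IL27 and by 1.91 ± 0.30 in ctrl by 12 to 20 h, and the value in IL27 was -2.74 without the 2 h arrays. Dnajb1, the main J-domain partner of cytosolic Hsp70, averaged 721 ± 80 units at 12 to 20 h in IL27 against 1288 ± 121 at 0.5 to 2 h, and 764 ± 129 against 1311 ± 172 in ctrl (SD, n = 7 and 4). It fell by 0.81 ± 0.13 and 0.76 ± 0.13. Late in ctrl it fell again, by 0.71 ± 0.14, but not without the 72 h arrays (-0.52, adjusted p 0.054), and its second probe set moved the other way over that span (0.43 in IL27 and 0.34 in ctrl). Dnaja1, another cytosolic partner, averaged 2811 ± 395, 2184 ± 129 and 1169 ± 114 units at 0.5 to 2, 12 to 20 and 60 to 72 h in IL27 and 3024 ± 431, 2041 ± 280 and 1448 ± 164 in ctrl. It was called lower in both spans in both arms, although without the 72 h arrays the late fall in ctrl was lost (-0.37). Its second probe set gave 0.26 in IL27 and 0.01 in ctrl between 0.5 to 2 h and 12 to 20 h.

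**Figure D3:**
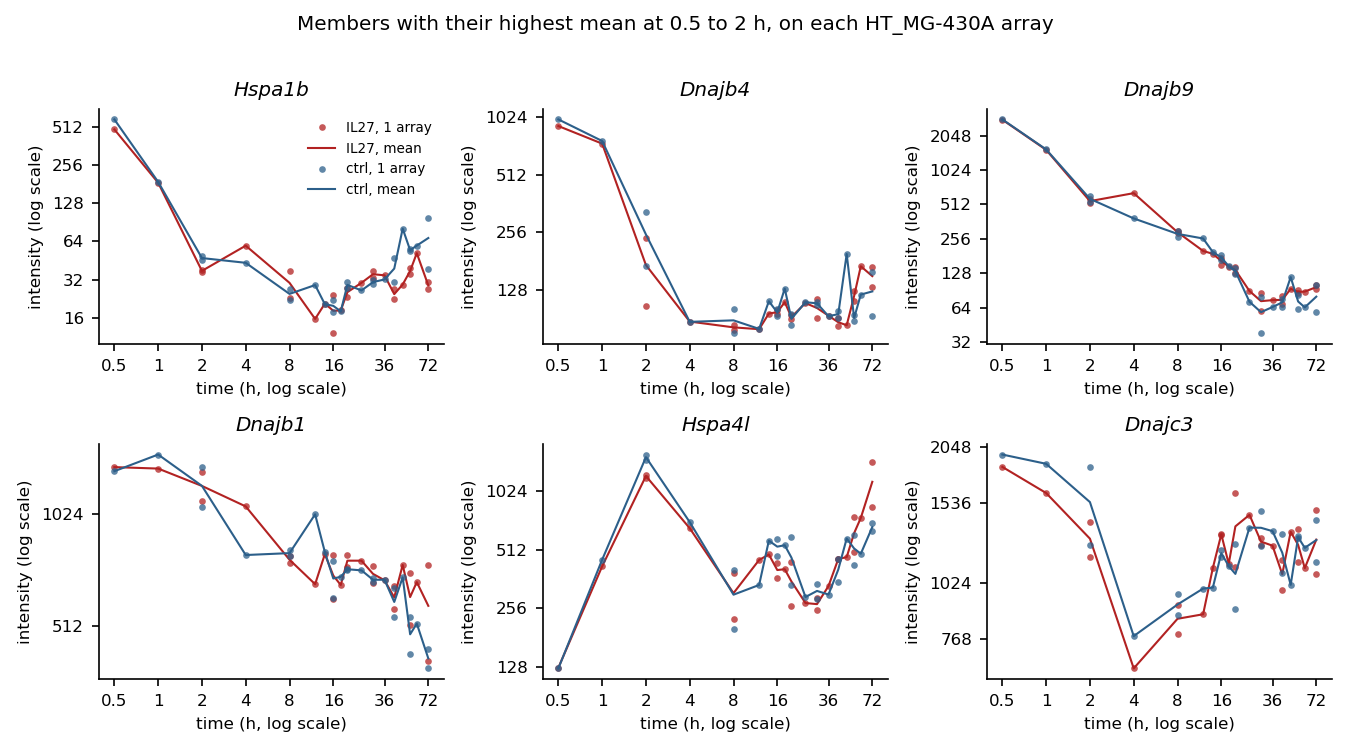
Intensity (log axis) of Hspa1b, Dnajb4, Dnajb9, Dnajb1, Hspa4l and Dnajc3 against hours of culture; points are HT_MG-430A arrays and lines join the means of a time, for IL27 and ctrl. Hspa1b, Dnajb4 and Dnajb9 start at 487, 914 and 2814 in IL27 and 584, 990 and 2833 in ctrl, and Hspa4l peaks at 2 h.

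Members of the endoplasmic reticulum went both ways. Of the 7, 3 rose and 2 fell by 12 to 20 h in IL27 (42.9% and 28.6%, against 41.0% and 32.3% of all genes), and 3 rose and 3 fell in ctrl (42.9% each, against 39.5% and 33.5%). Dnajb9, which recruits the lumenal Hsp70 to the stress sensor IRE1, had the largest fall of all members. It had 2815, 1535, 569 and 524 units at 0.5, 1, 2 and 2 h in IL27 and 2833, 1547, 609 and 535 in ctrl. By 12 to 20 h it had dropped to between 129 and 200.4 in IL27 and between 125 and 257 in ctrl, and by 30 h its mean was 72.9 in IL27 and 58.4 in ctrl. The difference was -2.52 ± 0.30 in IL27 (adjusted p 5.7e-10) and -2.49 ± 0.30 in ctrl (8.4e-10). At 4 h, with 1 array each, it had 642 units in IL27 and 386 in ctrl. Dnajc3, a lumenal co-chaperone, fell by 0.90 ± 0.16 in IL27 and by 0.95 ± 0.16 in ctrl at the first step and was then higher, with bin means of 1507 ± 293, 787 ± 127 and 1207 ± 235 units at 0.5 to 2, 4 to 8 and 12 to 20 h in IL27 and 1735 ± 333, 870 ± 92 and 1089 ± 131 in ctrl. Its fall by 12 to 20 h in IL27 (-0.32 ± 0.13) was lost without the arrays of 0.5, 1, 12 or 14 h (-0.21, -0.28, -0.24 and -0.30), and was -0.53 without those of 2 h. A dimmer probe set of Dnajc3 gave 0.17 in IL27 and 0.05 in ctrl over that span.

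Hsp90b1, Dnajb11 and Dnajc10 were the 3 that rose. Hsp90b1, the lumenal Hsp90, averaged 2687 ± 415 units at 12 to 20 h in IL27 against 1344 ± 100 at 0.5 to 2 h, and 2492 ± 386 against 1438 ± 160 in ctrl (SD, n = 7 and 4). It rose by 0.97 ± 0.12 in IL27 and 0.77 ± 0.12 in ctrl and stayed there, with late differences of -0.07 and -0.08. Dnajb11, a partner of the lumenal Hsp70, rose by 0.88 ± 0.18 in IL27 and 0.45 ± 0.18 in ctrl and fell by 1.10 ± 0.19 and 0.70 ± 0.19. Its rise in ctrl was lost without the 0.5 or 16 h arrays (0.35 and 0.30), and its fall in ctrl without those of 72 h (-0.41). Both were called without the 12 h ctrl array, at 0.65 and -0.90. Dnajc10, a reductase of wrong disulphide bonds, rose in both spans, by 0.57 ± 0.15 and 0.66 ± 0.17 in IL27 and by 0.51 ± 0.15 and 0.83 ± 0.17 in ctrl; without the 2 h arrays its rise to 12 to 20 h was called in neither arm (0.19 in IL27 and 0.28 in ctrl). Hspa5, the lumenal Hsp70 known as BiP, averaged 3251 ± 280, 2833 ± 163 and 1717 ± 225 units at 0.5 to 2, 12 to 20 and 60 to 72 h in IL27 and 3241 ± 384, 2220 ± 640 and 1563 ± 157 in ctrl. It was 835 on the 12 h ctrl array, and its fall by 12 to 20 h in ctrl was -0.61 ± 0.16 with that array and -0.40 without it, while -0.19 ± 0.16 in IL27 was not called. Its late fall of -0.72 ± 0.17 in IL27 was lost without the 72 h arrays (-0.62, adjusted p 0.068). The late fall in ctrl, -0.42 ± 0.17, was -0.64 without the 12 h ctrl array and was lost without the arrays of 14, 16, 18, 20, 60 or 72 h (-0.30 to -0.45).

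An endoplasmic reticulum stress element, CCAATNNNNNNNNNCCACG or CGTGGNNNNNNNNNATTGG on the other strand, was found in the windows of 3 members, Dnajc3, Hsp90b1 and Hspa5, 5.17% of members against 0.137% of all genes. The windows are shown because these 3 genes share the element and differed in course. Capitals mark each match, and Hsp90b1 holds it in both orientations. The stretches are chr2:34771985-34772083 (plus strand) for Hspa5, chr10:86705493-86705694 (minus strand) for Hsp90b1 and chr14:118937787-118937885 (plus strand) for Dnajc3, from RefSeq on GRCm38.p6.
Hspa5: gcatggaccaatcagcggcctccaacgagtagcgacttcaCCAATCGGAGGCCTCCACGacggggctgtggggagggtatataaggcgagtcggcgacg
Hsp90b1: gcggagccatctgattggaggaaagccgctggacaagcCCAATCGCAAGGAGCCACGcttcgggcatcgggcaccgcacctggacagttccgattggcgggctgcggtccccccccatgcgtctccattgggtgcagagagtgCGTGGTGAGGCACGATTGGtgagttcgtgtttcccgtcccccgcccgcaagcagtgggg
Dnajc3: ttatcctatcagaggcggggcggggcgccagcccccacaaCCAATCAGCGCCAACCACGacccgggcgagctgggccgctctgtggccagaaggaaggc

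The J-domain genes not listed here with the mitochondrial or endoplasmic reticulum members went both ways. They include Dnajb1, Dnajb4, Dnaja1 and Dnajc2, and also Dnajc18, although its protein lies in the endoplasmic reticulum membrane. Of 25 tested, 6 rose and 8 fell by 12 to 20 h in IL27, and 6 rose and 7 fell in ctrl. That was 24% and 32% in IL27, against 41.0% and 32.3% of all genes. In ctrl it was 24% and 28%, against 39.5% and 33.5%. Dnajc24, which takes part in the diphthamide modification of elongation factor 2, rose most. It averaged 329 ± 39 units at 12 to 20 h in IL27 against 69.2 ± 17.3 at 0.5 to 2 h, and 339 ± 37 against 68.6 ± 8.7 in ctrl (SD, n = 7 and 4). The rise was 1.84 ± 0.13 in IL27 and 1.88 ± 0.13 in ctrl, and the later fall -1.26 ± 0.15 and -1.08 ± 0.15. Dnajc27, a small GTPase with a J domain, peaked at 4 h, with 280 units in IL27 and 315 in ctrl on 1 array each. It rose at the first step by 0.96 ± 0.20 in IL27 and 1.04 ± 0.20 in ctrl and over the late span fell by 1.46 ± 0.18 and 0.91 ± 0.18. Its 3 arrays of 60 to 72 h averaged 26.5 ± 2.0 in IL27 and 45.4 ± 2.5 in ctrl, close to the array medians. Dnajc9, a co-chaperone of histones, fell by 0.62 ± 0.22 at the first step in both arms, losing that call in both without the 8 h arrays (-0.64 and -0.61), and then climbed to means of 1373 in IL27 and 1421 in ctrl at 25 h. Dnajc5, the cysteine string protein, fell by 0.82 ± 0.14 in IL27 and by 0.94 ± 0.14 in ctrl by 12 to 20 h, and 1 of its 5 probe sets, the dimmest, gave 0.22 in IL27 and -0.09 in ctrl.

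A small group rose late. Between 12 to 20 h and 60 to 72 h, Hspb11 rose by 1.36 ± 0.22 in IL27 and 1.61 ± 0.22 in ctrl, with 60 to 72 h means of 476 ± 71 and 651 ± 87 units. Dnajb13, known from sperm tails, rose by 1.02 ± 0.10 in IL27 and 0.69 ± 0.10 in ctrl but stayed dim, at 96.0 ± 4.2 and 73.5 ± 7.2 units. Hspa2, an Hsp70 known from the testis, rose by 0.78 ± 0.14 in IL27 and 0.62 ± 0.14 in ctrl to 43.9 ± 11 and 38.6 ± 17.6 units, and the ctrl call was lost without the 72 h arrays (0.44). Dnajc18, an endoplasmic reticulum membrane J-domain protein, rose by 0.80 ± 0.16 in IL27 and 1.06 ± 0.16 in ctrl, losing the IL27 call without the 72 h arrays (0.53). Hspbp1, in contrast, rose and then fell, with a rise of 1.41 ± 0.21 in IL27 and 1.26 ± 0.21 in ctrl and a fall of 1.58 ± 0.23 and 1.12 ± 0.23, the ctrl call of the fall being lost without the 72 h arrays (-0.73). On the 12 h ctrl array it was 129, and its other ctrl means from 14 to 20 h were 456 to 513; without that array its ctrl rise was 1.5 and its fall -1.36.

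**Figure D4:**
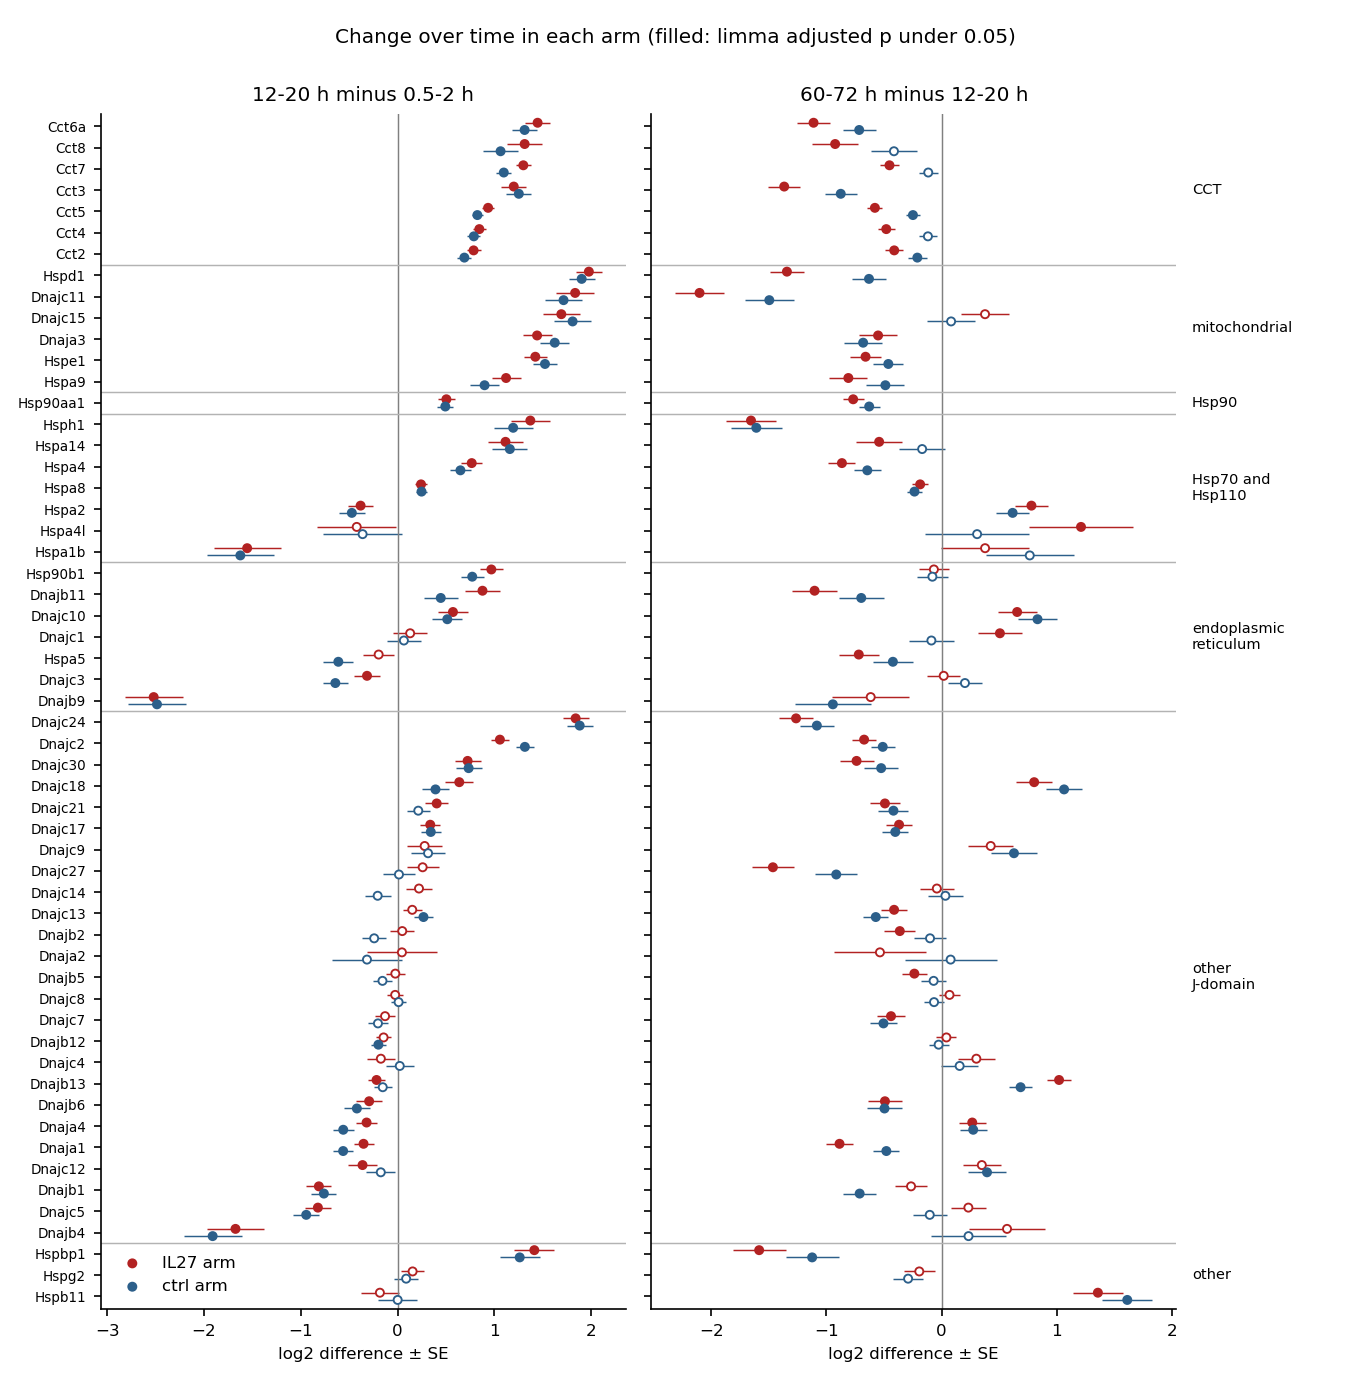
Differences of log2(intensity + 32) for each tested member, 12 to 20 h minus 0.5 to 2 h (rise) and 60 to 72 h minus 12 to 20 h (decline), with bars of 1 SE, for IL27 and ctrl. Filled points passed an adjusted p of 0.05 in limma; CCT and mitochondrial members lie right of 0 in the rise, and all of them except Dnajc15 lie left of 0 in the decline.

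The question of the study is what IL-27 changes, and few members differed between the arms. Each window compared the arms with time as a factor: early (0.5 to 4 h, 5 arrays per arm), middle (8 to 20 h, 9 arrays) and late (25 to 72 h, 12 arrays). In the early window 0 of 56 members were called in limma, against 2.33% of all genes, with 4 at an unadjusted p under 0.05. Without the 12 h ctrl array 1 member was called there, Dnaja2. Dnaja2 had 28.9 units on that array, and was higher in IL27 at 4 of 4 early times, by 0.239 to 0.348. In the middle window 3 were higher and 2 lower in IL27, 8.93% of members against 10.7% of all genes (4.83% higher, 5.86% lower). This count was 1 without the 12 h ctrl array and 13 when contrasts at single times were averaged. In the late window 0 were higher and 3 lower, 5.36% against 18.5% (8.78% higher, 9.76% lower), and without the 12 h ctrl array 6 were lower. The late minus early change was called for 0 members, against 7.09% of all genes, with 6 at an unadjusted p under 0.05. The median member difference late was -0.01, the same as over all genes.

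Hspa5 was 1 of the 3 higher in IL27 in the middle window. It ran from 2607 through 2884 to 3032 units in IL27 and from 835 through 2554 to 3080 in ctrl, higher in IL27 at 5 of 6 times. The groups overlap, and the difference was 0.33 ± 0.10 (adjusted p 0.026). Without the 12 h ctrl array it was 0.16 (adjusted p 0.11), and the call was also lost without the 16 h arrays (0.36, 0.052) or those of 20 h (0.34, 0.065). Dnajc18 ran from 62.4 through 104 to 116 in IL27 and from 30.0 through 85.7 to 102 in ctrl, and was higher in IL27 at 6 of 6 times. Dnajc21, a factor of ribosome assembly, ran from 452 through 521 to 557 in IL27 and from 263 through 459 to 580.0 in ctrl, and was higher at 6 of 6 times. Their differences were 0.25 ± 0.08 and 0.24 ± 0.08 (adjusted p 0.049 each). Without the 12 h ctrl array they were 0.16 and 0.15 (adjusted p 0.24 each), and leaving out most other times also ended the call.

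Dnajc4 and Dnajc12 were lower in IL27. Dnajc4 ran from 82.1 through 121 to 134 units in IL27 and from 108 through 142 to 164 in ctrl in the middle window, lower at 5 of 6 times, with a difference of -0.22 ± 0.05 (adjusted p 0.0052). It was the only member still called without the 12 h ctrl array, and it was lost without the 20 h arrays (-0.19, adjusted p 0.054). Dnajc12, a co-chaperone of aromatic amino acid hydroxylases, had -0.30 ± 0.08 there (adjusted p 0.017), which was -0.21 without the 12 h ctrl array (0.094) and was lost without the 16 h arrays as well (0.068). In the late window it ran from 54.0 through 68.4 to 101 in IL27 and from 52.2 through 110.3 to 158 in ctrl. It was lower in IL27 at 8 of 8 times, by -0.33 ± 0.07 (adjusted p 0.00079), and kept this call without any single time. Mouse430A_2 gave the same sign at 4, 16 and 48 h, with 141, 69.7 and 132 units in IL27 and 193, 104 and 193 in ctrl, where the difference of -0.42 ± 0.12 did not pass (adjusted p 0.44).

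Hspa1b and Dnajc10 were also lower late. Hspa1b ran from 22.4 through 31.8 to 51.7 units in IL27 and from 26.3 through 43.1 to 97.2 in ctrl, lower at 5 of 8 times, by -0.27 ± 0.08 (adjusted p 0.019). The values are near the array medians, and the call was lost without the arrays of 42, 48, 54 or 72 h (adjusted p 0.057, 0.062, 0.069 and 0.093). Dnajc10 ran from 314 through 392 to 463 in IL27 and from 320.0 through 458 to 619 in ctrl, lower at 8 of 8 times, by -0.22 ± 0.07 (adjusted p 0.023), and was lost without 42, 48 or 72 h (adjusted p 0.059, 0.073 and 0.10).

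**Figure D5:**
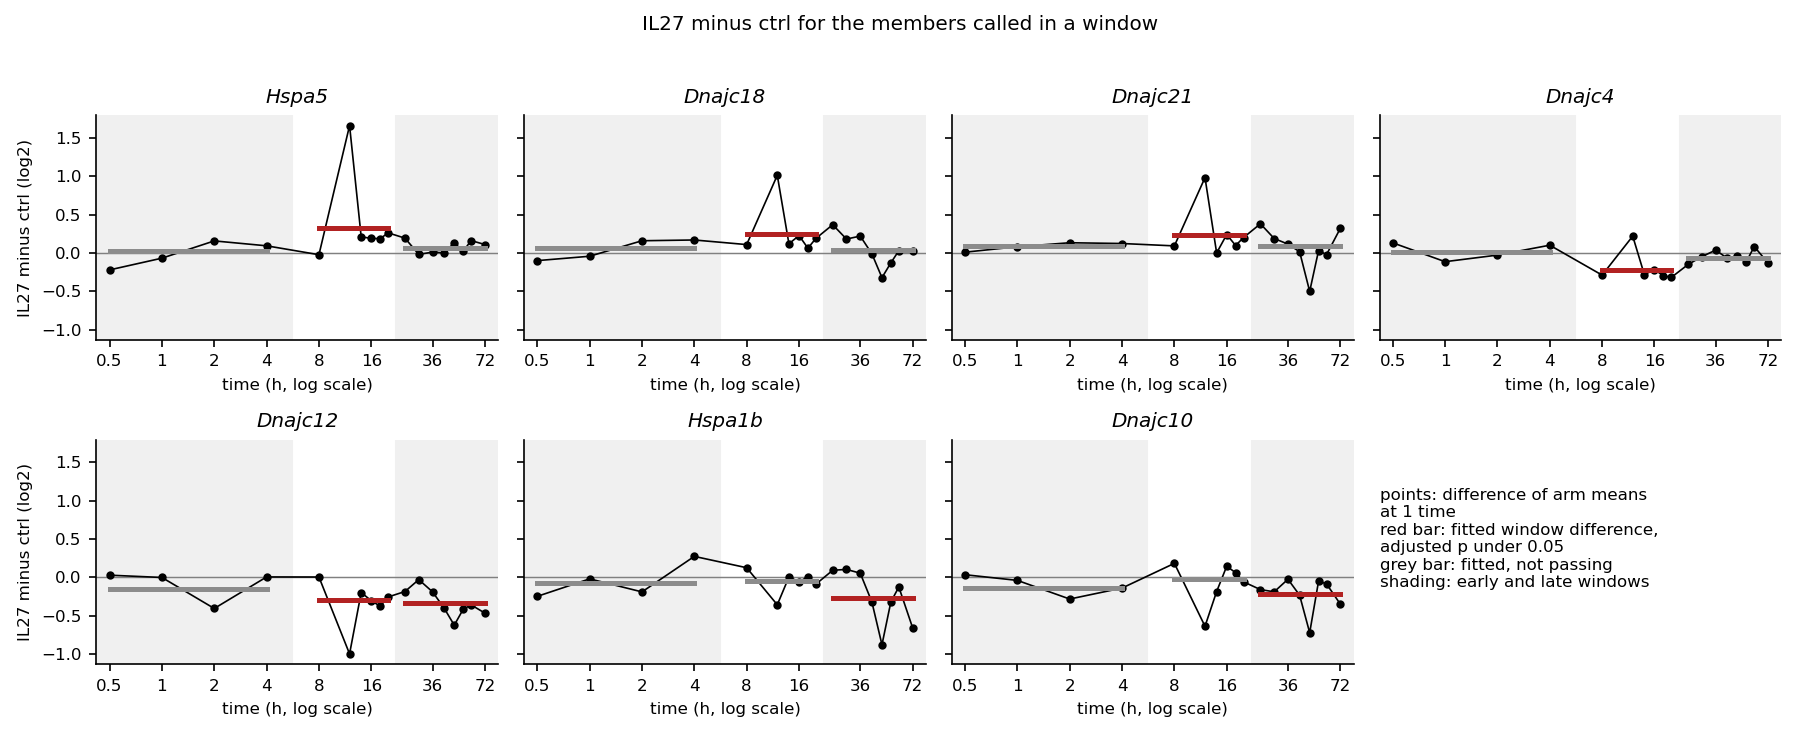
Difference IL27 minus ctrl of log2(intensity + 32) at each time for Hspa5, Dnajc18, Dnajc21, Dnajc4, Dnajc12, Hspa1b and Dnajc10; horizontal bars are the fitted differences of the early, middle and late windows, red where called. Dnajc12 and Dnajc10 lie below 0 at all 8 late times, and the 12 h points stand off in several panels.

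Whether the arms differed in the course itself was tested directly, on the bin means and without matching the arrays of the arms by time. A paired fit, described at the end, called more members and more genes for the late fall, with members in both directions. The rise differed for 0 members, against 0.447% of all genes, with 1 at an unadjusted p under 0.05. The late fall was larger in IL27 for 3 members and smaller for 0, against 3.75% of all genes called (1.41% lower, 2.35% higher). These 3 were the chaperonin genes Hspd1, Cct4 and Cct5. At 60, 72 and 72 h, Hspd1 had 3832, 2398 and 2172 units in IL27 and 4590.4, 3526 and 3896 in ctrl. Cct4 had 3576, 2778 and 3447 in IL27 and 4359.5, 3682 and 4096 in ctrl. Cct5 had 4387, 4038 and 4255 in IL27 and 5235, 4599 and 5190.0 in ctrl. For Cct4 and Cct5 every IL27 array lay below every ctrl array, and for Hspd1 the 60 h IL27 array lay above 1 ctrl array of 72 h. These arrays are among those that gave the calls, so their order is no separate support. The differences between the falls were -0.71 ± 0.21 for Hspd1 (adjusted p 0.044), -0.36 ± 0.11 for Cct4 (0.044) and -0.33 ± 0.09 for Cct5 (0.028). Of the other 5 probe sets of Cct4, the 2 brightest gave -0.36 and -0.31 and the 3 dimmer ones -0.12, -0.08 and -0.17, and Hspd1 and Cct5 have 1 each. None of the 3 was called without the 72 h arrays (-0.42, -0.33 and -0.34) or without the 20 h arrays (adjusted p 0.086, 0.065 and 0.051). Without the 60 h arrays Cct4 and Cct5 were lost (adjusted p 0.10 and 0.11), and without the 12 h ctrl array Hspd1 was (-0.62, 0.059). Hspd1 was also lost without the arrays of 12, 14, 16, 18, 25, 30 or 36 h (-0.78 to -0.64), and Cct4 without those of 1, 14, 16, 18, 25, 30, 36 or 54 h (-0.38 to -0.34).

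The other chaperonin members had differences of the same sign that did not pass, at -0.49 ± 0.20 for Cct3 (adjusted p 0.17), -0.34 ± 0.12 for Cct7 (0.11), -0.40 ± 0.20 for Cct6a (0.31), -0.51 ± 0.28 for Cct8 (0.35) and -0.20 ± 0.11 for Cct2 (0.37). Without the 12 h ctrl array the ctrl fall was -0.66 for Cct8, against -0.92 in IL27, and -0.82 for Cct6a, against -1.11. For Cct2 it was -0.26 and for Cct7 -0.17, also nearer to IL27. That of Cct3 was -0.82, further from the -1.37 of IL27. Leaving out that array thus made the difference smaller for 4 of these genes and larger for Cct3. Activation markers on the same arrays summed to between 1365 and 9587 in IL27 and between 1053 and 10165 in ctrl over the whole course, and their part in these differences was not tested.

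Genes that work with the members, taken from lists of named partners, were counted in the same way. Among regulators and cytosolic co-chaperones, 15 of 19 tested rose and 2 fell by 12 to 20 h in IL27, and 12 rose and 2 fell in ctrl. That was 78.9% and 10.5% in IL27, against 41.0% and 32.3% of all genes. In ctrl it was 63.2% and 10.5%, against 39.5% and 33.5%. Nudc, a co-chaperone of Hsp90, rose by 1.78 ± 0.17 in IL27 and 1.61 ± 0.17 in ctrl, St13, which bridges Hsp70 and Hsp90, by 1.21 ± 0.11 and 1.16 ± 0.11, and Ahsa1, which activates Hsp90, by 1.46 ± 0.23 and 1.26 ± 0.23. Of the same 19, 13 fell and 1 rose over the late span in IL27, and 11 fell and 2 rose in ctrl. In the late window of the arm comparison Fkbp5, an Hsp90 co-chaperone of steroid receptors, was higher in IL27 (0.34 ± 0.07, adjusted p 0.00033), and Bag1, an exchange factor of Hsp70, was lower (-0.17 ± 0.04, 0.0036).

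Of 9 chaperonin partners tested, 7 rose and 1 fell in IL27 (77.8% and 11.1%, against 41.0% and 32.3% of all genes). In ctrl 6 of these partners rose and 1 fell (66.7% and 11.1%, against 39.5% and 33.5%). They include Tcp1, the CCT subunit whose symbol the naming rule passes over, at 1.15 ± 0.11 in IL27 and 1.00 ± 0.11 in ctrl, and the prefoldin subunits Pfdn1 (1.26 ± 0.13 and 1.27 ± 0.13) and Pfdn6 (1.40 ± 0.12 and 1.35 ± 0.12). Mitochondrial partners rose in 9 of 10 cases in each arm and fell in 0. That was 90% and 0%, against 41.0% and 32.3% of all genes in IL27 and 39.5% and 33.5% in ctrl. Grpel2, an exchange factor of Hspa9, rose by 1.32 ± 0.11 in IL27 and 1.09 ± 0.11 in ctrl. It was the 1 partner gene whose late fall differed between the arms, at -1.27 ± 0.12 in IL27 and -0.63 ± 0.12 in ctrl (difference -0.64 ± 0.17, adjusted p 0.024), and it was lost without the 16, 20 or 72 h arrays (-0.67, -0.62 and -0.47).

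Folding genes of the endoplasmic reticulum also went both ways. Of 14 tested, 7 rose and 4 fell by 12 to 20 h in each arm. These shares, 50% and 28.6%, stood against 41.0% and 32.3% of all genes in IL27 and 39.5% and 33.5% in ctrl. Sdf2l1, a lumenal co-chaperone, rose by 2.56 ± 0.29 in IL27 and 2.34 ± 0.29 in ctrl, and Creld2 by 1.52 ± 0.16 and 1.32 ± 0.16. The 4 that fell were Ddit3, Herpud1, Xbp1 and Atf4. Ddit3, the transcription factor CHOP, fell by 1.58 ± 0.25 in IL27 and by 1.87 ± 0.25 in ctrl, and over the late span it rose by 3.10 ± 0.27 in IL27 and by 1.94 ± 0.27 in ctrl. Between the arms, Manf (0.47 ± 0.12, adjusted p 0.006) and Calr (0.34 ± 0.10, 0.021) were higher in IL27 in the middle window, and Ddit3 (0.71 ± 0.11, 1e-05) and Creld2 (0.18 ± 0.06, 0.024) late. Without the 12 h ctrl array Manf was 0.28 and still called and Calr was lost (0.19), and Creld2 was lost without the 30, 48 or 54 h arrays (0.15 to 0.18).

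On Mouse430A_2 the cells before stimulation could be set against 4 h, with 1 array each and no test. Of 55 members above the array median at either time, 18 were at least 2-fold higher at 4 h in ctrl, 32.7% against 19.8% of 6758 genes, and 4 were at least 2-fold lower, where 19.3% of genes were. Hspd1 had 14554 units at 4 h in ctrl and 4320.4 at 0 h, a ratio of 3.37. Hspa9 had a ratio of 3.76, Cct6a 3.23, Hsph1 2.67, Cct8 2.24 and Cct3 2.03. Hspa4l had 2364 units at 4 h and 237 at 0 h, a ratio of 9.99 and the highest of the members. The 4 lower were Hspb11, with 129 units at 4 h and 949 at 0 h, Dnaja4, Dnajb13 and Dnajc3, with ratios of 0.14, 0.40, 0.43 and 0.44. Of the members that were high on the first HT_MG-430A arrays, Hspa1b had 26.6 units at 4 h in ctrl and 29.9 at 0 h, both below the array median. Dnajb1 had 3956 and 2031 units at 4 and 48 h in ctrl and 4512 at 0 h, Dnajb4 had 418 and 208 and at 0 h 478.5, and Dnajb9 had 958.5 and 155 and at 0 h 919. Unlike Hspa1b, these 3 were thus above the array median before culture. The array types cannot be set on one scale. Between the arms at 4 h, Hspa1b had 299 units in IL27 and 26.6 in ctrl, and Hspa1a had 153 and 80.0, 1 array each. Between the arms on these arrays 0 of 53 members and 0 of 6478 genes (0.0%) were called in limma, with 3 members at an unadjusted p under 0.05. Between the arrays named GFPP and GFPN at 48 h, which the labels do not explain, the ratios of 52 members lay between 0.744 for Hspg2 and 1.244 for Dnajb12, with a median of 0.98 against 1.004 over 6447 genes.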

How the data were processed

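The authors deposited 1 table per array type with a linear intensity for each of 22626 probe sets. Per the submitters' processing notes MAS5 was used; no version or scaling is stated there. Arrays of a type had like medians, so the deposited intensities were used without further normalization and the array types were tested apart. Of the probe sets, 20173 named 1 gene, 942 several and 1511 none; only the first were used, and for each gene the probe set with the highest mean over HT_MG-430A arrays was kept. Of the 70 members, 64 were named in the HT_MG-430A annotation and 6 (Cct6a, Dnajb7, Hsp90aa1, Hspa1a, Hspb11 and Hspd1) only through that of Mouse430A_2, and 42 have 2 or more probe sets. Hsp90ab1 was not analysed here.

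The test was limma 3.58.1 (R 4.3.3) on log2(intensity + 32), moderated with an intensity trend and adjusted over all genes tested. One model fitted each time and, per window, an IL27 effect; another had a mean for each arm and time bin; bins held 4, 3, 7, 4, 5 and 3 arrays per arm. On Mouse430A_2 a gene had to lie above the median on 3 of the 6 paired arrays, which leaves 2 residual degrees of freedom. The models were tested on simulated data. The members, gene lists and comparisons were chosen with earlier results of these data known. Members named in the text are those called in an arm comparison, most but not all of the 8 largest each way in the course comparisons, and examples of each group. Promoter windows are RefSeq's on GRCm38.p6. Alternatives were other pseudocounts (1 and 100), filters, quantile normalization, all probe sets, no trend, the suffix d arrays left out or as a block, single-time contrasts, no 12 h ctrl array and each time left out, and, added after seeing the data, a replicate block of time and suffix d.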

Additional observations from a re-analysis of the deposited data

Results flagged for a closer look

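The late fall differed between the arms, by an unpaired test of the difference itself, for 3 members. Hspd1 fell by more in IL27 than in ctrl (-0.712 on the log2 scale), as did Cct4 (-0.362) and Cct5 (-0.33). The 60 to 72 h bin holds 3 arrays per arm from 2 times, and none of these differences passed without the 72 h arrays.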

How the results depend on the processing

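Under other settings, 311 counts of called members stayed within 1.5 times the count reported and 44 did not. Without the 12 h ctrl array, 1 member was called early (Dnaja2), 1 in the middle window (Dnajc4) and 6 late. Leaving out the arrays of suffix d gave 2 in the middle window and 0 for the difference of the late fall, and suffix d as a block gave 3 in the middle window. Single-time contrasts averaged over the middle window called 13, and the mean of all probe sets called 6 late. For the difference of the late fall, 1 (Cct5) was left with only genes above the median of mean log2 values, 1 (Cct5) after quantile normalization and 0 without the intensity trend. Leaving out each time in turn gave 0 to 1 early, 1 to 6 in the middle window, 1 to 6 late, 0 to 1 late minus early, 24 to 40 in IL27 and 24 to 42 in ctrl at the first step, 35 to 42 and 38 to 44 in the rise, 23 to 44 and 13 to 37 in the decline, 0 to 0 and 0 to 3 for their differences, and 0 to 1 on Mouse430A_2. Single named members were counted once per comparison and setting, so that 1 result can count under several settings. The call was the same in 8106 cases, lost in 213 and gained in 28, and in 116 uncalled cases the sign changed. Dnaja1 turned direction at the first step in IL27 with the mean of all probe sets (0.023, adjusted p 0.9 in limma). The causes were not tested. Dim members such as Hspa1b and Hspa2 are limited by signal near the array median. A paired fit, added after seeing the data, took IL27 and ctrl arrays of the same time and suffix as a replicate block. It called the same 5 members in the middle window and the same 3 late. For the difference of the late fall it called 12 of 56 members (8 lower and 4 higher in IL27), against 1613 of 7164 genes. The share of members was thus close to that of all genes. Among the 12 were Hspd1, Cct4, Cct5, Cct3 (-0.491, adjusted p 0.0022 in limma), Cct7 and Cct6a. The deviations of suffix d arrays correlated between the arms across genes at 0.228 to 0.757 at 7 of the 8 times and at -0.0126 at 30 h, and the labels do not say whether the suffix marks pairs.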
